A study of Mus musculus with 6 samples.

Results

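The genes described here are the 10 that encode the writer complex and the erasers of N6-methyladenosine (m6A) on messenger RNA, measured in the livers of C57BL/6 mice. They were chosen by name, with earlier results of these data known. They are the 8 writer genes Mettl3, Mettl14, Wtap, Virma, Rbm15, Rbm15b, Zc3h13 and Cbll1 and the 2 eraser genes Alkbh5 and Fto. All 10 were among the 27179 genes of the count files and all 10 passed the filter on low counts, which kept 14380 genes. The study compared 3 wild-type livers with 3 livers labelled Mettl3-deficient, all of strain C57BL/6 and with no treatment named. Age and sex of the mice and the hour of collection are not stated in the labels, nor is the promoter or method that made Mettl3 deficient or which exons were affected. Nothing says whether each of the 6 livers came from its own mouse, and p-values measure only the spread among them.

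m6A is the most common internal mark of messenger RNA. It is placed in the nucleus by METTL3, the subunit that carries the methyltransferase activity, in a heterodimer with METTL14, which has no activity of its own and helps to bind the RNA. WTAP, VIRMA, ZC3H13, CBLL1 (also called HAKAI) and the RNA-binding paralogues RBM15 and RBM15B form the associated regulatory complex that holds the heterodimer in nuclear speckles and guides it to its sites. FTO and ALKBH5 are iron- and 2-oxoglutarate-dependent dioxygenases that remove the methyl group, FTO also from the modified base next to the cap. In liver the mark is known for its part in lipid metabolism and hepatocyte maturation.

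The libraries held 31960205 to 36025772 counts, and the 10 genes had between 195 (Mettl3) and 3435 (Alkbh5) counts in a library. Levels below are CPM, counts relative to the library total, scaled with edgeR's TMM factors for library composition. They are given for replicates 1, 2 and 3 in that order. These factors were 0.825 to 0.881 in wild-type and 1.12 to 1.25 in Mettl3-deficient libraries. Without them the median of log2 fold changes over all tested genes moved from 0.01 to 0.49, so a level here is relative to the other genes of a library. Y-linked counts were above 100 in wild type replicate 1 and Mettl3-deficient replicates 1 and 2 and at most 11 in the others. Each group mixed both kinds of library, but in unequal numbers. The groups may thus differ in sex makeup, which the labels do not state. Wild type replicate 1 stood apart from the other wild-type libraries, with a chi-square per degree of freedom of 309 and 303 against them and 17.1 between them. The Mettl3-deficient libraries differed among themselves by 90.4 to 246 on this measure.

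The hepatocyte markers, Alb among them, were the most abundant of the marker lists in each library, but their summed level ran from 153328 to 193345 CPM in wild-type and from 65425 to 96085 CPM in Mettl3-deficient libraries. Alb was the largest part of this sum in each library, at 108639 to 141166 CPM in wild-type and 32061 to 53329 CPM in Mettl3-deficient ones. Of these 8 markers 3 fell (Alb, Fgb and Hnf4a) and 5 were not called, among them Trf (0.16 on the log2 scale). With 1 library left out, Alb and Fgb were called in 3 of 6 fits each and Hnf4a in 2. With library size alone Alb and Fgb were still called lower, and Hnf4a was not (-0.69, edgeR adjusted p = 0.0575). All 5 markers of proliferating cells rose, with summed levels of 3.84 to 16.0 CPM in wild-type and 66.8 to 106.9 CPM in Mettl3-deficient libraries. All 5 were also called higher with library size alone. With 1 library left out, their calls held in from 1 (Top2a and Cdk1) to 6 (Mcm2) of 6 fits. For macrophage markers the sums were 99.9 to 405 and 352 to 674 CPM, with 1 of 8 higher, and for cholangiocyte markers 106 to 126 and 91.2 to 248 CPM, with 1 of 7 higher. Sums of the 7 endothelial markers (144 to 231 and 135 to 172 CPM, 1 lower) and of the 7 stellate cell and fibroblast markers (347 to 377 and 261 to 488 CPM, none called) overlapped. T cell, B cell (none of 4 called) and neutrophil markers (1 of 2 tested higher) were each at or under 4.96 CPM in sum. Of the 4 T cell markers Cd4 fell (-1.89 on the log2 scale), while Cd3d stood at 1.71, Cd3e at 1.35 and Cd8a at 2.08, not called. With library size alone 2 of the 4 were called higher and none lower, beside 33.4% and 4.14% of all tested genes. Over all tested genes 13.3% were called higher and 10.5% lower, so 1 of 7 or 1 of 8 is near that share. The part of the marker differences in the values of the 10 genes was not tested. In whole liver, fewer cells of a type and less RNA per cell cannot be told apart.

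The sequences upstream of the 2 genes that passed the test, Mettl3 and Cbll1, are shown because these are the genes with a call. Each is the 250 bases before the listed transcript start, on the gene's own strand, from RefSeq (GRCm38.p6, the assembly of mm10), with CpG dinucleotides in capitals. The Mettl3 window is chr14:52305125-52305374 (minus strand) and the Cbll1 window chr12:31499617-31499866 (minus strand). Both windows lie inside the RefSeq spans of their genes, and that of Cbll1 also overlaps the span of the long noncoding gene Gm40362.
Mettl3: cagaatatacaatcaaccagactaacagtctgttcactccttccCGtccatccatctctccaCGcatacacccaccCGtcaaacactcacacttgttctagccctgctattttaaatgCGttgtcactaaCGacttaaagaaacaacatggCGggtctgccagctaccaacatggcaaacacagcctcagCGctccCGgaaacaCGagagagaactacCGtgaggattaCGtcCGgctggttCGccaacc
Cbll1: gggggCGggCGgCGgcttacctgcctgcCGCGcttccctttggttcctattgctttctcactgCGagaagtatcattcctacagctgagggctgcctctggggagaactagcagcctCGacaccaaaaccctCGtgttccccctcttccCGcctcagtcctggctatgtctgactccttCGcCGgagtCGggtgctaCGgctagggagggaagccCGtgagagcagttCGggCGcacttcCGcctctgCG
The Mettl3 window holds 13 CpG dinucleotides at 50.4% G and C and the Cbll1 window 18 at 62.8%, against medians of 6 and 52.4% over all 32851 listed windows. Windows were listed for 8 of the 10 genes, 11 in all, and each held at least 13 CpG dinucleotides. Both strands were searched for 4 promoter motifs, chosen after the windows had been read: the GC box (GGGCGG), the CCAAT box (CCAAT), the ETS core (CCGGAAG) and the CRE core (TGACGT). Of the 11 windows 3 belong to Wtap and 2 to Zc3h13 and overlap in part, so they are not independent. GC box letters were in 8 of the 11 windows (5 of the 8 genes) and in 32.7% of all windows, with 2 overlapping matches at the far end of the Cbll1 window and none in that of Mettl3. The CCAAT letters were in 4 of the 11 (3 of the 8 genes, and 33.8% of all windows), the ETS core in 2 of the 11, both overlapping windows of Zc3h13 (6.91%), and the CRE core in 0 of the 11 (6.47%). A match is a description of letters and not a binding site.

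Mettl3 (Entrez 56335, chromosome 14, 52294841 to 52308741, minus strand), the targeted gene, was measured at 13.4, 14.3 and 12.1 CPM in the wild-type livers and at 5.96, 6.60 and 4.94 CPM in the Mettl3-deficient livers. The groups were far apart, and every Mettl3-deficient liver still held Mettl3 reads, 240, 298 and 195 counts against 376, 403 and 327. The mean in Mettl3-deficient livers was 44.1% of the wild-type mean. The log2 fold change of -1.18 ± 0.20 (SE) passed the test (edgeR's quasi-likelihood test, Benjamini-Hochberg adjusted p = 0.00797). Mettl3 was called lower in each of the 16 alternative fits, and without 1 library its log2 fold change ran from -1.28 to -1.08 (edgeR adjusted p 0.0120 to 0.0386). The smallest fall among the alternative fits was that with library size alone, -0.70 (edgeR adjusted p = 0.0414). Among all genes called lower, 652 had a larger fall. Counts cover the whole gene, so reads from exons that a deletion leaves in place, and from cells that keep the gene, are included and cannot be told apart here.

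Mettl3 lies tail to tail with Tox4, whose RefSeq span on the opposite strand overlaps the last 669 bases of Mettl3. Tox4 was at 34.1 ± 1.85 CPM in wild-type and 31.6 ± 1.62 CPM in Mettl3-deficient livers (SD, n = 3 each) and was not called (log2 fold change -0.11, edgeR adjusted p = 0.564). Whether Tox4 reads were counted for Mettl3 was not tested, since the strand setting of the counting is not given. On the other side, Sall2, 2436 bases away, stood at -0.31 on the log2 scale (edgeR adjusted p = 0.368). Neither neighbour of Mettl3 was called.

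**Figure D1:**
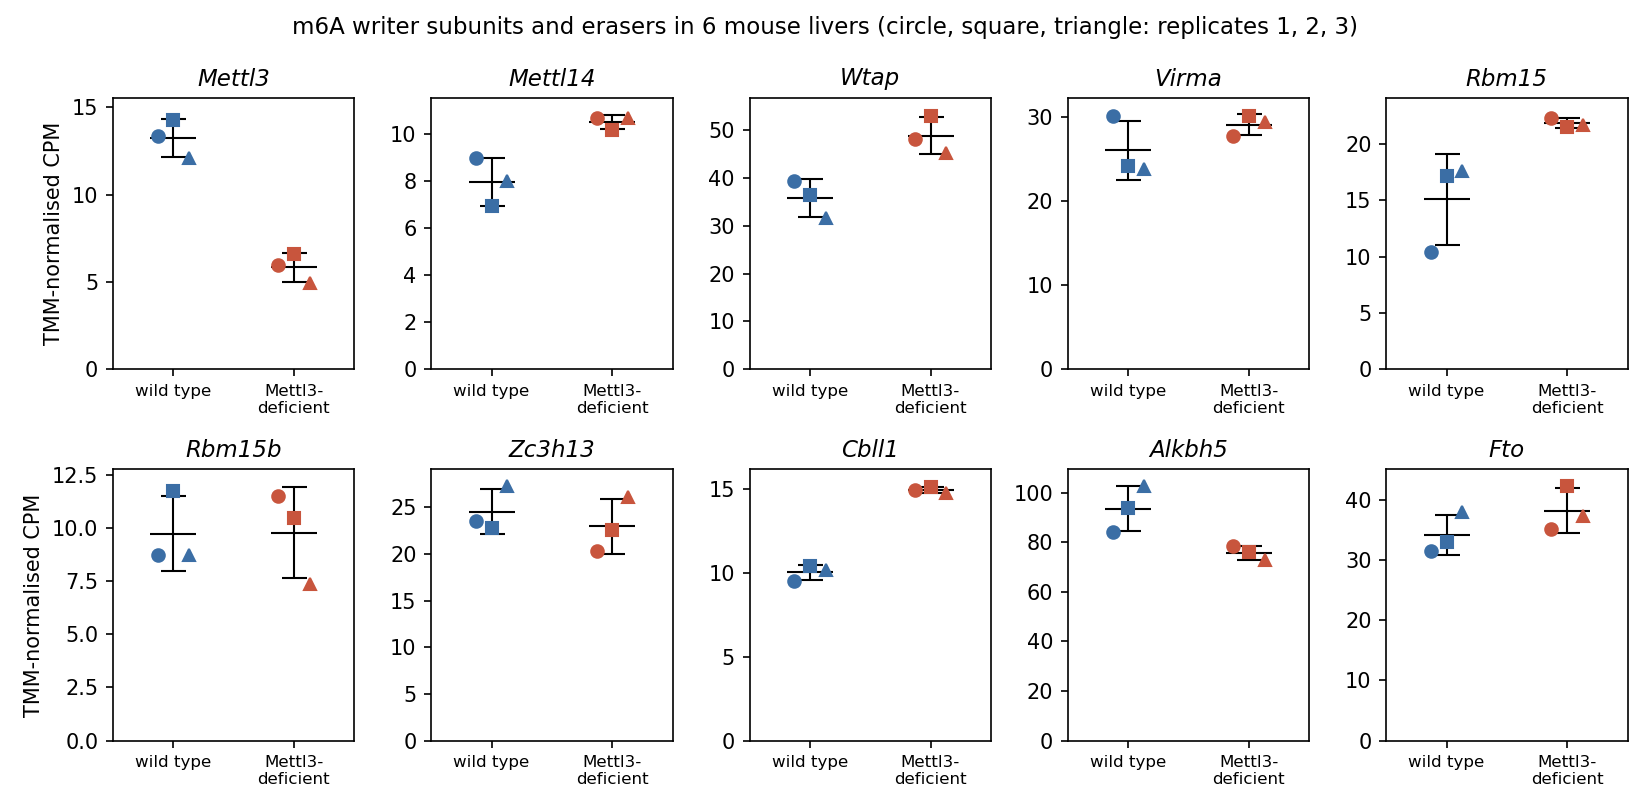
TMM-normalised CPM (vertical axes, each starting at 0) of the 10 genes in each library, wild type in blue and Mettl3-deficient in red, with the mean and SD of the 3 libraries in black. Mettl3 sits between 12.1 and 14.3 CPM in wild-type and between 4.94 and 6.60 CPM in Mettl3-deficient livers, and Cbll1 between 9.48 and 10.4 and between 14.7 and 15.1 CPM.

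Of the 10 genes, 1 fell (Mettl3) and 1 rose (Cbll1), beside 10.5% of all 14380 tested genes called lower and 13.3% called higher, and 8 were not called. With 23.8% of all genes called in either direction, 2 of 10 is near the background. Values of 6 of the 10 did not overlap between the groups, 4 higher in Mettl3-deficient livers (Mettl14, Wtap, Rbm15, Cbll1) and 2 lower (Mettl3, Alkbh5), and such separation held for 45.7% of all tested genes, 23.9% higher and 21.9% lower. The median log2 fold change was 0.16 over the 9 genes other than Mettl3, against 0.01 over all tested genes.

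Mettl14 (Entrez 210529, chromosome 3, 123368295 to 123385990, minus strand), the partner of Mettl3 in the catalytic core, was at 8.95, 6.93 and 7.98 CPM in wild-type and 10.6, 10.2 and 10.7 CPM in Mettl3-deficient livers. All Mettl3-deficient values were above the wild-type ones, but the change was not called (log2 fold change 0.40 ± 0.19 (SE), edgeR adjusted p = 0.153). The 2 core subunits were also set against each other within each library. Per read of Mettl14 there were 1.49, 2.06 and 1.51 reads of Mettl3 in the wild-type libraries and 0.559, 0.649 and 0.463 in the Mettl3-deficient ones. This ratio does not depend on how libraries are scaled. The ratio of the 2 genes thus went from above 1 in all 3 wild-type libraries to below 1 in all 3 Mettl3-deficient libraries. Reads were not corrected for length here (merged exons of 5076 bases for Mettl3 and 7419 for Mettl14), so a ratio of 1 does not mark equal abundance.

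The same was done with each of the other 6 writer subunits. Mettl3 reads per read of Wtap were 0.339 to 0.390 in wild-type and 0.109 to 0.125 in Mettl3-deficient libraries. Per read of Zc3h13 they were 0.442 to 0.627 and 0.189 to 0.294. For all 7 subunits the groups did not overlap, and the mean log2 ratio differed by -1.77 (Cbll1) to -1.09 (Zc3h13). Mettl3 itself fell without overlap (-1.18 on the log2 scale), so its ratio to any gene that changed little tends to separate too. The share of all genes with such a separated ratio was not computed. The 7 ratios share the Mettl3 counts and are not independent, and no test was made, since 3 libraries against 3 cannot give an exact p under 0.1.

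**Figure D2:**
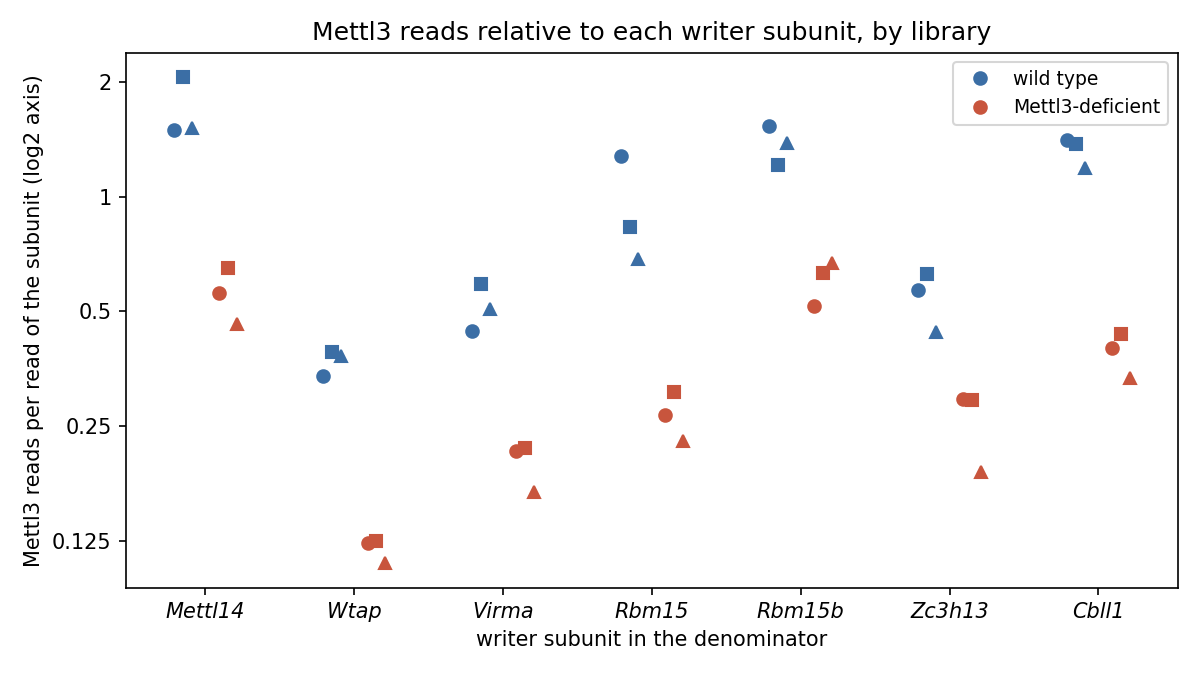
Reads of Mettl3 per read of each of the 7 other writer subunits (vertical log2 axis), with 1 point per library (circle, square and triangle for replicates 1, 2 and 3), wild type in blue and Mettl3-deficient in red. In each column the 3 red points lie below the 3 blue ones, from 0.463 to 0.649 against 1.49 to 2.06 for Mettl14.

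Cbll1 (Entrez 104836, chromosome 12, 31484829 to 31500676, minus strand) encodes the RING-type E3 ubiquitin ligase HAKAI of the regulatory complex. It was at 9.48, 10.4 and 10.2 CPM in wild-type and at 14.9, 15.1 and 14.7 CPM in Mettl3-deficient livers. The replicates lay close together, with an SD of 4.61% of the mean in wild-type and 1.20% in Mettl3-deficient livers. Cbll1 had 267 to 293 and 582 to 682 counts in these libraries. Random counting alone spreads such counts more than this, so the closeness is no measure of precision. Cbll1 rose 1.49-fold (log2 fold change 0.58 ± 0.15 (SE), edgeR adjusted p = 0.0311). Its log2 fold change was 0.54 to 0.60 whichever library was left out, but with 1 library fewer the call held in only 1 of 6 fits (edgeR adjusted p 0.0460 without wild type replicate 1, and 0.0511 to 0.109 without any of the others). The RefSeq span of Cbll1 overlaps 1057 bases of Gm40362, which is not among the counted genes.

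Wtap (Entrez 60532, chromosome 17, 12966799 to 12992543, minus strand) encodes the adaptor that links the core to the other subunits. It was at 39.4, 36.5 and 31.6 CPM in wild-type and 48.2, 52.9 and 45.3 CPM in Mettl3-deficient livers. The groups did not overlap, with a log2 fold change of 0.44 ± 0.15 (SE) just outside the threshold (edgeR adjusted p = 0.0620). Wtap was called in 3 of the 16 alternative fits. These were library size alone (0.92, edgeR adjusted p = 0.0059), the fit without wild type replicate 1 (0.52, edgeR adjusted p = 0.0448) and DESeq2 (adjusted p = 0.0498). Library size alone called 37.6% of all tested genes and DESeq2 31.8%.

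Rbm15 (Entrez 229700, chromosome 3, 107305511 to 107334460, minus strand) and Rbm15b (Entrez 109095, chromosome 9, 106880928 to 106887075, minus strand) encode paralogous RNA-binding proteins that recruit the complex to its targets. Rbm15 was at 10.4, 17.2 and 17.6 CPM in wild-type and at 22.3, 21.5 and 21.6 CPM in Mettl3-deficient livers. Its groups did not overlap, and the wild-type spread came from replicate 1, the library that stood apart. The log2 fold change of 0.53 ± 0.21 (SE) was not called (edgeR adjusted p = 0.103) and was 0.33 without that library (edgeR adjusted p = 0.122). Rbm15b was at 8.74, 11.8 and 8.72 CPM in wild-type and at 11.5, 10.5 and 7.40 CPM in Mettl3-deficient livers, fully overlapping. Its log2 fold change of 0.0087 ± 0.24 (SE) was not called (edgeR adjusted p = 0.982) and took either sign, depending on the fit.

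Virma (Entrez 66185, chromosome 4, 11485958 to 11551143, plus strand) encodes the large scaffold of the regulatory complex. It was at 30.0, 24.2 and 23.8 CPM in wild-type and 27.7, 30.1 and 29.4 CPM in Mettl3-deficient livers. The ranges overlapped through wild type replicate 1, and the log2 fold change was 0.16 ± 0.15 (SE, edgeR adjusted p = 0.460). Zc3h13 (Entrez 67302, chromosome 14, 75284306 to 75344433, plus strand), a zinc finger protein that keeps the complex in the nucleus, was at 23.5, 22.7 and 27.3 CPM in wild-type and 20.3, 22.5 and 26.1 CPM in Mettl3-deficient livers. These ranges overlapped as well, with a log2 fold change of -0.09 ± 0.16 (SE, edgeR adjusted p = 0.689), and 0.38 with library size alone. Zc3h13 is on the same chromosome as Mettl3.

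Alkbh5 (Entrez 268420, chromosome 11, 60537683 to 60558512, plus strand), the nuclear eraser, was at 84.4, 94.0 and 103 CPM in wild-type and 78.4, 76.1 and 72.8 CPM in Mettl3-deficient livers. All Mettl3-deficient values were below the wild-type ones on this scale. The log2 fold change of -0.31 ± 0.15 (SE) was not called (edgeR adjusted p = 0.157), and it was 0.17 with library size alone. Fto (Entrez 26383, chromosome 8, 91313367 to 91668433, plus strand) was at 31.5, 33.1 and 37.9 CPM in wild-type and 35.1, 42.4 and 37.2 CPM in Mettl3-deficient livers. These ranges overlapped, with a log2 fold change of 0.16 ± 0.15 (SE, edgeR adjusted p = 0.448). Per read of Fto there were 2.68, 2.84 and 2.71 reads of Alkbh5 in wild-type and 2.24, 1.80 and 1.95 in Mettl3-deficient libraries, a separation by group that does not depend on scaling. This ratio was chosen after its values were seen, and its mean log2 value differed by -0.46, Mettl3-deficient minus wild type.

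Scaling set the sign or the call of several of the 10 genes. Raw counts were above every wild-type library in every Mettl3-deficient library for 8 of the 10 genes, as for 52.6% of all tested genes. With library size alone, 6 were called higher (Mettl14, Wtap, Virma, Rbm15, Cbll1 and Fto) and 1 lower (Mettl3), beside 33.4% and 4.14% of all tested genes (37.6% in either direction). The share of all calls that were higher was 89.0% in that fit and 55.7% with TMM. Relative to the median of all genes in that fit, Mettl3 was at -1.19, Cbll1 at 0.57, Rbm15 at 0.53, Wtap at 0.44, Mettl14 at 0.38 and Alkbh5 at -0.31, values close to those with TMM. This follows from the scaling itself, which shifts all genes by about the same amount.

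**Figure D3:**
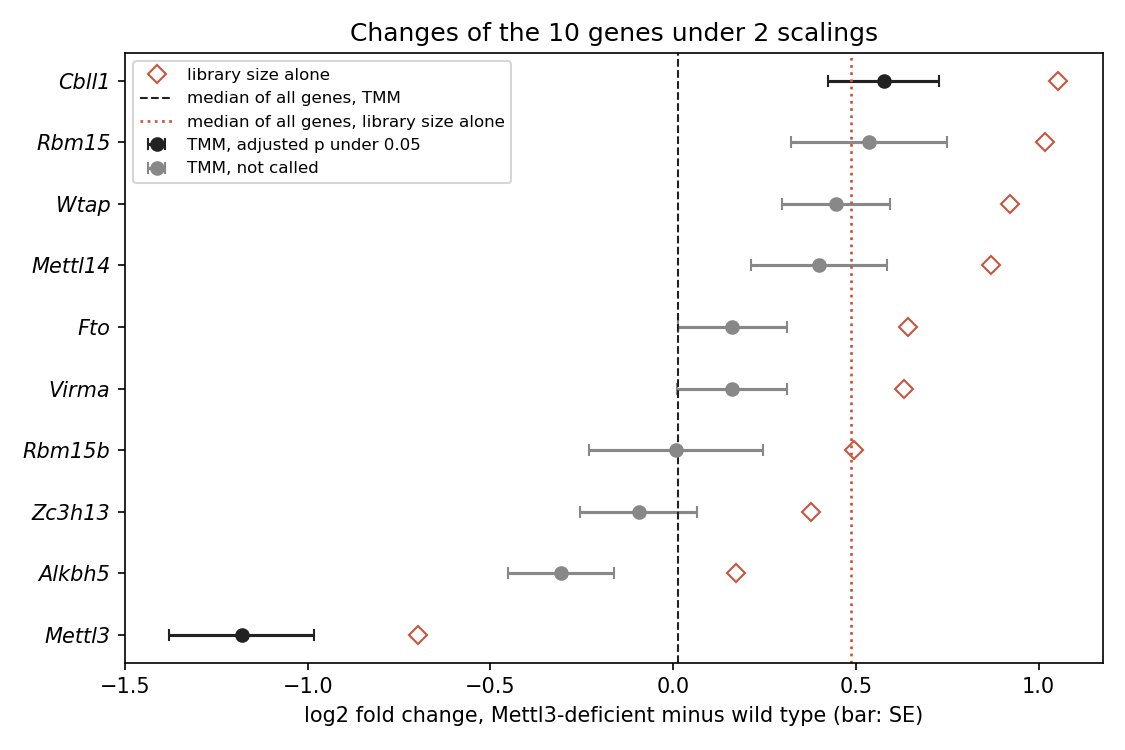
Log2 fold change (horizontal axis, Mettl3-deficient minus wild type) of the 10 genes with TMM factors (circles, bars of 1 SE, black where adjusted p was under 0.05) and with library size alone (open diamonds). Dashed and dotted lines mark the median of all tested genes under each scaling, 0.01 and 0.49, and Mettl3 lies left of both lines under both scalings.

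The libraries with Y-linked counts and those without them were also compared apart, with 1 or 2 libraries a side and no test. Wild type replicate 1, the library that stood apart, was the only wild-type library with Y-linked counts. Ratios with Y-linked counts thus rest on that library, and these 2 features of it cannot be told apart. Log2 ratios of mean CPM (Mettl3-deficient over wild type) had the same sign in both kinds for 7 of the 10 genes. They were -1.09 with and -1.41 without Y-linked counts for Mettl3, 0.66 and 0.52 for Cbll1, 0.36 and 0.41 for Wtap, 0.22 and 0.52 for Mettl14 and 1.07 and 0.32 for Rbm15. The signs differed for Rbm15b (0.33 and -0.47), Virma (-0.05 and 0.29) and Zc3h13 (-0.14 and 0.06). For Alkbh5 they were -0.13 and -0.43 and for Fto 0.30 and 0.07.

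Levels of different genes were compared as CPM per kilobase of merged exons. In wild-type livers Alkbh5 was highest at 15.6 ± 1.53 CPM per kilobase (SD, n = 3), followed by Wtap at 5.74 ± 0.630. Zc3h13 (3.90 ± 0.389) and Virma (3.64 ± 0.490) came next and did not differ beyond their spread. Fto (2.62 ± 0.257), Mettl3 (2.61 ± 0.214), Cbll1 (2.50 ± 0.115), Rbm15 (2.03 ± 0.540) and Rbm15b (1.50 ± 0.270) formed a run in which no neighbour differed from the next beyond the spread, and Mettl14 was lowest at 1.07 ± 0.136 CPM per kilobase. In Mettl3-deficient livers Mettl3 was lowest of the 10, at 1.15 ± 0.165 CPM per kilobase, below Mettl14 at 1.41 ± 0.0385. Alkbh5 (12.7 ± 0.473) and Wtap (7.81 ± 0.620) stayed the highest on this scale.

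The order depended on the length used. Merged exons of Mettl3 cover 5076 bases but its longest transcript paired with a RefSeq accession 2025, and for Fto the lengths are 13031 and 3564 bases. Per kilobase of that transcript, wild-type livers had 6.53 ± 0.537 CPM of Mettl3 and 2.90 ± 0.369 CPM of Mettl14 (SD, n = 3), ranks 4 and 8 of the 10 in place of 6 and 10. In Mettl3-deficient livers the values were 2.88 ± 0.413 and 3.83 ± 0.104, so that Rbm15b (1.51 ± 0.330) and not Mettl3 was the lowest of the 10, and Mettl3, at rank 9, overlapped Zc3h13 (3.73 ± 0.479) within the spread. Mettl3 was above Mettl14 in wild-type and below it in Mettl3-deficient livers with either length. Wtap passed Alkbh5 in Mettl3-deficient livers with this length (15.3 ± 1.22 against 13.2 ± 0.494 CPM per kilobase).

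Genes lying next to the others of the 10 were measured too. Overlapping genes on the opposite strand were Slc16a4 for Rbm15 (0.928 ± 0.769 CPM in wild-type livers, SD, n = 3) and Dcaf1 for Rbm15b (30.7 ± 1.16 CPM, overlapping 65 bases), and neither was called (edgeR adjusted p = 0.229 and 0.186). Rpgrip1l, which starts 76 bases from the start of Fto on the other strand, was not called (log2 value -0.10, edgeR adjusted p = 0.800). The noncoding gene 4831440D22Rik inside Fto had at most 2 counts in a library, and Gm46470, a pseudogene inside Zc3h13, is not among the counted genes. Of the neighbours within 10 kb, Cpb2, 751 bases before Zc3h13, fell from 469 ± 25.6 to 268 ± 49.7 CPM (SD, n = 3, -0.81 on the log2 scale, edgeR adjusted p = 0.0342, and -0.34 with library size alone). Sec24d beside Mettl14 (0.05), Acat2 beside Wtap (-0.55), Rad54b beside Virma (1.52) and Manf beside Rbm15b (0.27) were not called (edgeR adjusted p = 0.921, 0.176, 0.0612 and 0.832).

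The profile of Mettl3 over the 6 libraries was compared with those of 13098 other protein-coding genes, as the root mean square difference of log2(CPM + 0.5) after centring each gene on its mean. The 5 smallest differences were those of Vegfa (0.0907), Edrf1 (0.104), Fam169a (0.121), Fndc4 (0.134) and Tubd1 (0.136). Vegfa was at 241, 235 and 240 CPM in wild-type and 120, 117 and 95.9 CPM in Mettl3-deficient livers, and Tubd1 at 6.85, 5.94 and 5.32 and 3.05, 2.70 and 1.85 CPM. Fam169a was below 1 CPM in each library, where the added 0.5 shrinks differences. Each of the 5 was lower in all Mettl3-deficient livers, which follows from choosing them by likeness to Mettl3. None is on chromosome 14.

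Related genes were read from lists of the same pathway. These lists were chosen with earlier results of these data known, so their counts of calls are descriptions and not tests. The m6A readers bind the mark or RNA whose structure it opens. Of 12 tested readers 2 rose and 1 fell, with a median log2 fold change of 0.02 (0.01 over all genes). The 3 calls among 12 are near the 23.8% of all tested genes called in either direction. Ythdf2, a reader that directs marked RNA to decay, was at 27.7, 31.5 and 24.4 CPM in wild-type and 87.8, 102 and 78.9 CPM in Mettl3-deficient livers. Ythdf1 rose by 0.88 on the log2 scale. Rbmx, which binds RNA whose structure the mark opens, fell from 24.4 ± 3.65 to 11.6 ± 1.93 CPM (SD, n = 3, log2 fold change -1.07 ± 0.19 (SE), edgeR adjusted p = 0.00947). Its 3 wild-type values (28.1, 20.8 and 24.2 CPM) were all above the Mettl3-deficient ones (13.2, 9.48 and 12.3 CPM), and it was called in 6 of 6 fits without 1 library.

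Of the 6 genes of other adenosine N6 methyltransferases and their cofactor, 0 rose and 1 fell, with a median log2 fold change of -0.05, beside 10.5% of all tested genes called lower and 23.8% in either direction. That gene was Trmt112, the small protein that stabilises METTL5 and other methyltransferases, which fell from 31.5 ± 2.55 to 20.9 ± 2.82 CPM (SD, n = 3, log2 fold change -0.59 ± 0.16 (SE), edgeR adjusted p = 0.0330). Its call held without wild type replicate 1, was lost without any other library, and was lost with library size alone (-0.11). Mettl5, the methyltransferase of 18S ribosomal RNA, stood at -0.64 on the log2 scale (edgeR adjusted p = 0.0643), and Mettl16, which methylates the U6 small nuclear RNA, at 0.71, not called.

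Alkbh5 belongs to the AlkB family, and of the 7 other AlkB homologues 1 rose and 0 fell, with a median log2 fold change of 0.49. The 1 of 7 is near the 13.3% of all tested genes called higher. Alkbh2, which repairs alkylated DNA, was at 5.65, 3.47 and 3.77 CPM in wild-type and 10.6, 15.3 and 6.81 CPM in Mettl3-deficient livers (log2 fold change 1.35 ± 0.34 (SE), edgeR adjusted p = 0.0283). The groups did not overlap, and the call held without replicate 1 of the wild type and without replicate 3 of the Mettl3-deficient livers, and was lost without any of the other libraries. Alkbh4 (0.97), Alkbh1 (0.71), Alkbh3 (0.49) and Alkbh7 (-0.61) had edgeR adjusted p-values of 0.0754, 0.0670, 0.0648 and 0.0943. With library size alone 4 of the 7 were called higher, beside 33.4% of all tested genes.

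The methyl donor of the writers is S-adenosylmethionine, and the product S-adenosylhomocysteine inhibits them until it is cleared. Of 10 genes of this supply and removal, 0 rose and 5 fell, with a median log2 fold change of -0.57, beside 13.3% of all tested genes called higher and 10.5% called lower. This list too was chosen with earlier results known, so its 5 of 10 is no test of an excess. Ahcy, which splits S-adenosylhomocysteine, was at 1586, 3575 and 3300 CPM in wild-type and 620, 486 and 800 CPM in Mettl3-deficient livers (log2 fold change -2.15 ± 0.38 (SE), edgeR adjusted p = 0.00933). The lowest wild-type value was that of replicate 1, and the groups did not overlap. Adk, which removes the adenosine formed in that reaction, fell by 0.99 on the log2 scale and Ahcyl1, an Ahcy-like protein, by 0.70. Mat2b, the regulatory subunit of the MAT2A enzyme, fell by 0.44, and stood at 0.04 with library size alone. Gnmt, which uses up S-adenosylmethionine, fell by 1.62.

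The catalytic genes of that supply were not called. Mat1a, the hepatocyte form, varied widely (6206 ± 3376 CPM in wild-type and 3346 ± 1911 CPM in Mettl3-deficient livers, SD, n = 3, edgeR adjusted p = 0.276), and Mat2a, the form of other cells, stood at 0.09 on the log2 scale (edgeR adjusted p = 0.759). Of the 5 genes that fell, Ahcy was called in 6 of 6 fits without 1 library, Gnmt in 4, Adk and Ahcyl1 in 2 each and Mat2b in 1. Only 1 of the 10 fell when replicate 2 of the wild type or replicate 1 of the Mettl3-deficient livers was left out. When replicate 3 of the wild type or replicate 2 of the Mettl3-deficient livers was left out, 2 fell. With library size alone 2 fell and 1 rose, beside 4.14% and 33.4% of all tested genes. The hepatocyte marker sums given above, of which Alb was the largest part, were lower in the same libraries as these 5 genes. The part of these sums in the result was not tested.

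**Figure D4:**
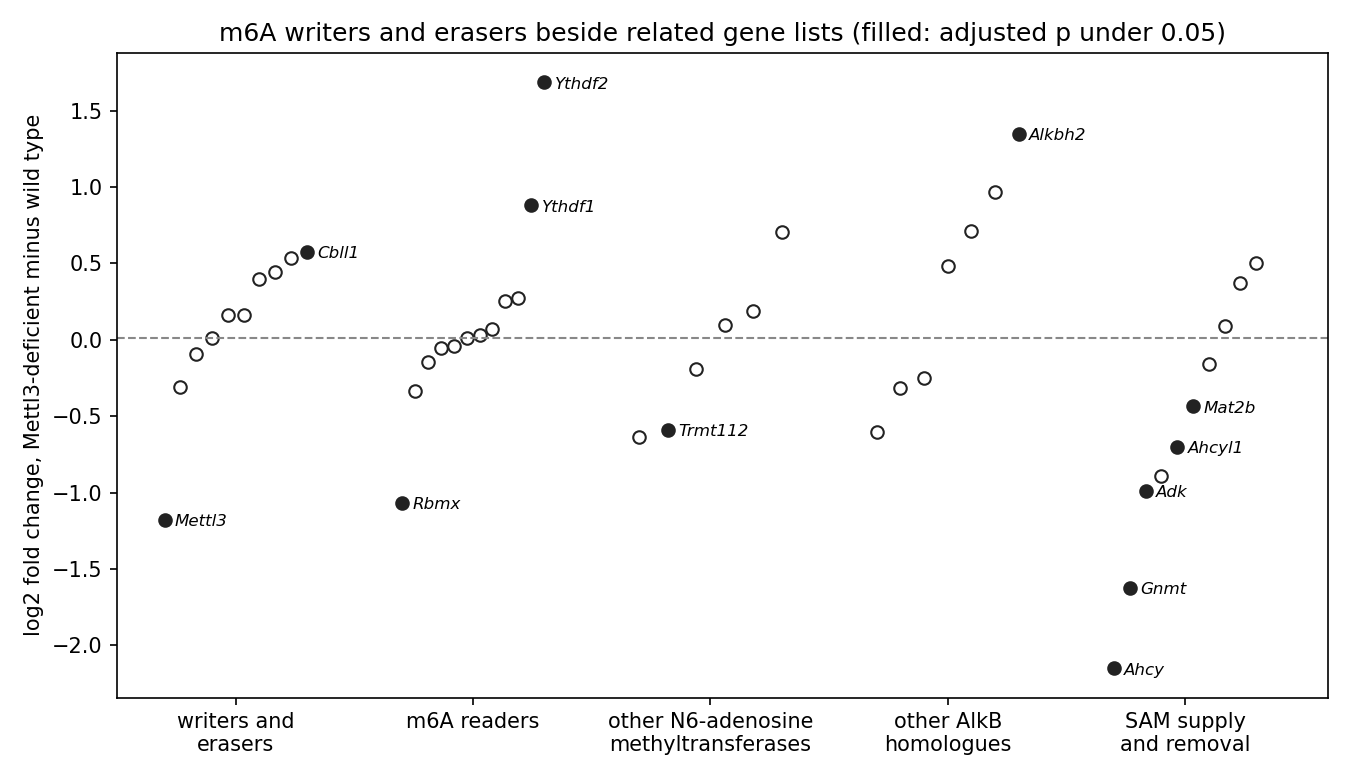
Log2 fold change (vertical axis, Mettl3-deficient minus wild type) of each tested gene of the writers and erasers and of 4 related lists, in order within each list, filled and named where the edgeR adjusted p was under 0.05. The dashed line is the median of all tested genes, 0.01. Called genes run from -2.15 (Ahcy) to 1.69 (Ythdf2), with Mettl3 at -1.18 and Cbll1 at 0.58.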

How the data were processed

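Total RNA of 6 livers was depleted of ribosomal RNA and made into directional libraries, per the labels' protocols. The authors deposited raw counts for each Entrez gene identifier, made with HISAT2, featureCounts and mm10, per the submitters' processing notes. Versions, annotation and strand setting: not given in the sources used here. Symbols came from RefSeq GRCm38.p6 (25275 of 27179 identifiers matched), exon lengths from GENCODE on GRCm38.

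Groups were taken from the labels. The test was edgeR's robust quasi-likelihood F test (edgeR 4.0.16, R 4.3.3), two-sided, TMM factors, filterByExpr (minimum count 10, minimum total 15), Benjamini-Hochberg over all 14380 genes, called at an adjusted p under 0.05. Standard errors were derived from the fold change and F statistic. The fit was tested on simulated data. Alternatives were RLE and upper-quartile factors, library size alone, DESeq2 1.42.0, limma-voom (limma 3.58.1), no filter, CPM of at least 1 in 3 libraries, the 20 most abundant genes removed, a replicate block, a covariate for over 100 Y-linked counts, and each library left out. The transcript length was added after seeing the data.

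The members and lists were chosen with earlier results of these data known. All 10 members are named, from the related lists each called gene, and other named genes were chosen after their values were seen. Neighbours are genes that overlap a member or the nearest within 10 kb with at least 10 counts in each library. 1 listed marker, Tf, was matched as Trf.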

Additional observations from a re-analysis of the deposited data

How the results depend on the processing

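Mettl3 was called lower in all 16 alternative fits. Genes called higher and lower over all genes, 1906 and 1514 with TMM, were 4810 and 595 with library size alone, and ran from 840 to 1932 and from 518 to 1582 when 1 library was left out. The fewest higher calls came without replicates 2 (840) and 3 (927) of the wild type and replicates 1 (864) and 2 (1117) of the Mettl3-deficient livers. Of the 10 members, the 1 called higher became 6 with library size alone, 2 with DESeq2 (Cbll1 and Wtap), 0 with the replicate block and 0 to 2 without 1 library. The same 1 was called lower in each fit. Zc3h13 and Alkbh5 turned to 0.38 and 0.17 with library size alone. Rbm15b was -0.0053 with RLE factors, -0.0052 with DESeq2, -0.0020 with the replicate block, -0.069 with the Y-linked covariate, and from -0.12 to 0.18 without 1 library. For library size alone, the omitted composition factors shift all genes. Elsewhere the cause was not tested.

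The labels do not say whether replicate numbers pair the livers. Correlations of same-numbered deviations from group means were 0.0839, -0.0174 and 0.0335, against -0.101 to 0.0404 for unlike-numbered ones. With 3 libraries a side these values cannot decide whether livers were paired. With the replicate block, Cbll1 stood at 0.58 on the log2 scale (edgeR adjusted p = 0.0752) and Mettl3 at -1.19 (edgeR adjusted p = 0.0158), and 1528 genes were called higher and 1155 lower. Among the 160 values of single members under the alternatives, 137 kept direction and side of the threshold, 7 passed it anew, 6 no longer passed it and 10 turned sign. Depth for these genes ran from 195 to 3435 counts in a library.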
